A study of Homo sapiens with 12 samples.

Results

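The genes described here are MYC, its relatives MYCN and MYCL, their partner MAX, the MAX-binding antagonists MXD1, MXD3, MXD4, MXI1 and MNT, and the zinc finger gene MAZ. These 10 genes were chosen by name. Of them, 9 are among the 22411 genes that had a transcript cluster annotated with 1 symbol, and each gene is given by its brightest cluster and by its exon-level probe sets. MXD4 had no cluster of its own, and its values come from a cluster annotated with both MXD4 and MIR4800, a microRNA gene inside it. The choice was made with the differences between MATR3 siRNA and control siRNA known, so the members' differences are given as a description with no test. In these data MAZ stood 2.03-fold higher after MATR3 siRNA, while the differences of the other 9 members lay between -0.06 and 0.18 on the log2 scale. MYC was read far above the array background and MYCN close to it.

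The cells were SH-SY5Y, a line from a human neuroblastoma, grown in DMEM/F-12 medium with 15% serum. They were electroporated in a 100 μl suspension with an siRNA against MATR3 or with a negative control siRNA (1100 V, 1 pulse of 50 ms). MATR3 encodes Matrin3, a nuclear matrix protein that binds RNA and DNA and takes part in splicing. Total RNA was taken 48 h later, and 100 ng of each sample was labelled for an Affymetrix transcriptome array. There were 3 samples per siRNA, each summarised once by gene, as transcript clusters, and once by probe sets that lie in an exon or span a splice junction. Only 1 line was used, and the labels do not say whether the replicates were separate cultures, so p-values cover the spread among these samples alone, and that spread may be technical. In RNA from whole cultures, fewer cells expressing a gene and less RNA per cell cannot be told apart.

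MYC proteins are transcription factors that pair with MAX and bind E-box sequences in the promoters of genes for growth, ribosome synthesis and metabolism. MXD proteins, MXI1 and MNT compete for MAX at the same sequences and recruit repressors. MYCN amplification marks aggressive neuroblastoma, and SH-SY5Y is known as a line without that amplification. MAZ, the MYC-associated zinc finger protein, was named for its binding to the MYC promoter. It recognises GC-rich sequences and is also known as a partner of CTCF at chromatin boundaries.

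The promoter sequences that show these binding letters were taken from a RefSeq promoter table on GRCh38.p14, which covers 250 bases before and 50 bases after each listed start. It held 12 promoters for 9 of the members, and MYC was not among them. The E-box searched was CACGTG, which reads the same on both strands, and the MAZ motif was GGGAGGG on either strand, with overlapping matches counted. The E-box was present for MXD4 and MNT, in 2 of the 12 promoters, and in 7.26% of the 35116 promoters of the table. The MAZ motif was present for 6 members, MAZ itself included, in 7 of the 12 promoters, and in 26.6% of all promoters. The 30-base windows below carry 1 match of the motif in capitals, on the strand of the gene. They show the MAZ gene's own GC-rich promoter beside those of MYCN, MAX and 2 antagonists. The MAZ promoter held 5 matches of the MAZ motif, and a match that overlaps the marked one is left in small letters.
MAZ, chr16:29806279-29806308, plus strand: gcagctgtccCCCTCCCtccctcgcgccct
MYCN, chr2:15940444-15940473, plus strand: ctctcctttctCCCTCCCccttgtctgcgc
MAX, chr14:65102385-65102414, minus strand: cggtgacttccCCCTCCCcttcaccccttc
MNT, chr17:2401236-2401265, minus strand: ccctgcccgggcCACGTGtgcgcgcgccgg
MXD4, chr4:2262330-2262359, minus strand: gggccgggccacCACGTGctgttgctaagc
A match of letters is a description and does not show that a factor binds there.

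The siRNA target was checked first. The cluster annotated with MATR3 and SNHG4 read 11.21, 10.53 and 10.52 in MATR3 siRNA replicates 1 to 3, against 12.25, 11.75 and 11.68 in control siRNA replicates 1 to 3, in log2 signal. The groups did not overlap, and the remaining signal was 45.4% of control (log2 difference -1.14 ± 0.09, SD of 3 pairs of the same replicate number). The arrays of replicate 1 differed from the other 4 in both groups. Their correlation was 0.996 with each other and 0.981 to 0.986 with the rest, and all 10 members read higher on them, by 0.14 (MYCL) to 0.97 (MXI1). Each member is therefore given by pairs of the same replicate number. Of the neuroblastoma markers, 8 of 9 measured (PHOX2A, HAND2, GATA3, DBH, ISL1, CHGA, CHGB and STMN2) stood above the highest background probe set, which averaged 6.93. Within that list DBH, the enzyme that makes noradrenaline, read 16.22, 16.14 and 16.23 after MATR3 siRNA, against 16.83, 17.15 and 17.13 after control siRNA, lower without overlap. GATA3, a sympathoadrenal transcription factor, read 14.09 to 14.33 after MATR3 siRNA and 13.89 to 14.05 after control siRNA. STMN2, a microtubule regulator of neurons, read 15.97 to 16.32 after MATR3 siRNA and 15.69 to 15.85 after control siRNA, so both were higher without overlap. The part of these markers in the members' differences was not tested. The marker not above the highest background was TH, the enzyme that starts catecholamine synthesis, at 4.80 to 4.95 after MATR3 siRNA and 4.51 to 4.85 after control siRNA. The mean over the neuroblastoma list was 11.58 to 12.17 after MATR3 siRNA and 11.75 to 12.15 after control siRNA. Mesenchymal or Schwann markers averaged 6.70 to 7.19 after MATR3 siRNA and 6.60 to 7.08 after control siRNA, with 3 of 8 (TWIST1, FN1 and VIM) above the highest background. None of the 5 blood and immune or the 5 epithelial markers measured was above it.

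MYC, the broadly expressed activator of the network, read 10.34, 9.47 and 9.68 in MATR3 siRNA replicates 1 to 3, against 10.28, 9.64 and 9.36 in control siRNA replicates 1 to 3. The groups overlapped, with replicate 1 highest in each, and the pair differences were 0.06, -0.17 and 0.32. The mean difference of 0.07 ± 0.25 was smaller than its spread (SD, n = 3 pairs). MYCN, the family member of the developing nervous system, read 5.04, 4.79 and 4.83 after MATR3 siRNA, against 5.00, 4.91 and 4.80 after control siRNA. These values overlapped, with a difference of -0.02 ± 0.09 (SD, n = 3 pairs). MYCL, the member first known from lung cancer, read 5.68, 5.52 and 5.53 after MATR3 siRNA, against 5.64, 5.48 and 5.53 after control siRNA. Its groups overlapped as well, with a difference of 0.03 ± 0.02.

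Signals of different probe sets are not a ratio of RNA amounts, so MYC and MYCN were each placed within the array instead. Among the 23781 clusters with 1 symbol, the MYC cluster lay at the 84.4th to 86.3rd percentile over the 6 samples, and the MYCN cluster at the 31.6th to 38.4th. Among all 67528 clusters, many of them without a gene symbol, these ranges were 90.4 to 91.4 for MYC and 44.4 to 52.6 for MYCN. Over the 6 samples MYC averaged 6.17 log2 units above the median of 23 background probe sets, and MYCN 1.27. The MYCN mean lay under the filter on low signal, 4.95 over the 6 samples, and the gene was therefore not tested in the fits on filtered clusters. By its mean, MYCL lay at the 46.5th percentile of clusters with 1 symbol, passed the filter, and was below the highest background probe set.

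The exon probe sets and the junction probe sets of these genes were then set against the same background. Of the 18 MYC exon probe sets, 13 had a mean above the highest background probe set, and so did 5 of its 7 junction probe sets. Of the 6 MYCN exon probe sets, none was above it, and their median level of 4.67 lay at the 30.8th percentile of all exon probe sets. Both MYCN junction probe sets, at 10.66 and 12.63, were above it, the brighter at the 90.8th percentile of all junction probe sets. The dimmer of them read 11.14, 11.23 and 11.16 after MATR3 siRNA, against 11.18, 9.58 and 9.70 after control siRNA. Only the control replicates 2 and 3 were low there, and the difference was 1.02 ± 0.93. MYCL showed the same split, with 2 of 10 exon and 2 of 3 junction probe sets above the highest background. Which transcript the bright MYCN and MYCL junction probe sets measured was not tested.

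**Figure D1:**
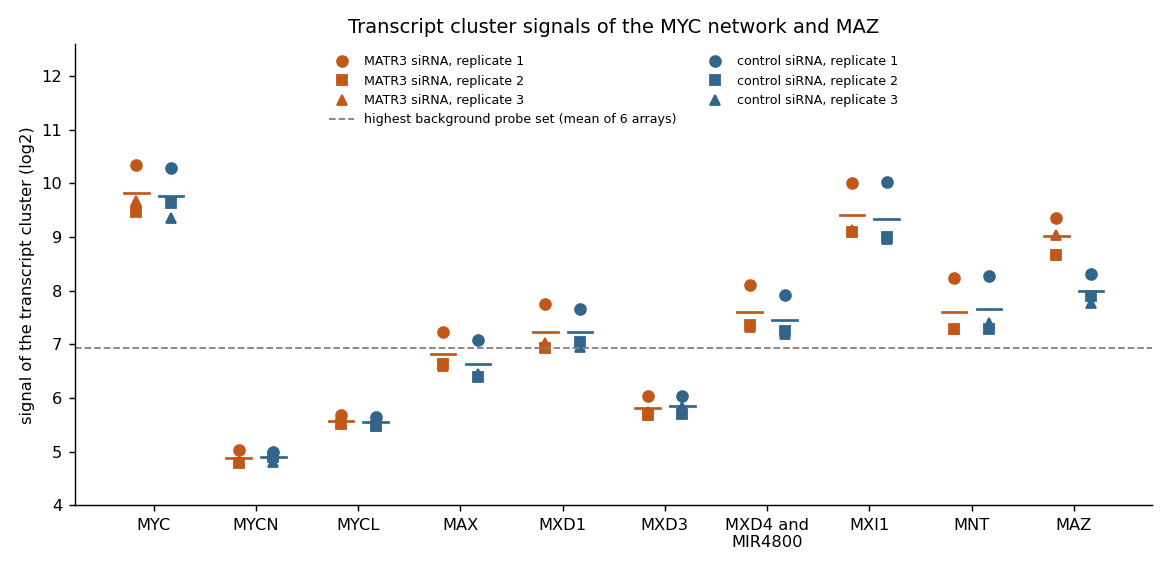
Log2 signal of the 10 members' transcript clusters in each sample, with MATR3 siRNA samples left of control siRNA samples for each gene, bars for group means and a dashed line for the highest background probe set. MYC lies between 9.36 and 10.34 and MYCN between 4.79 and 5.04, and the 3 MATR3 siRNA samples lie above all 3 control samples for MAZ alone.

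**Figure D2:**
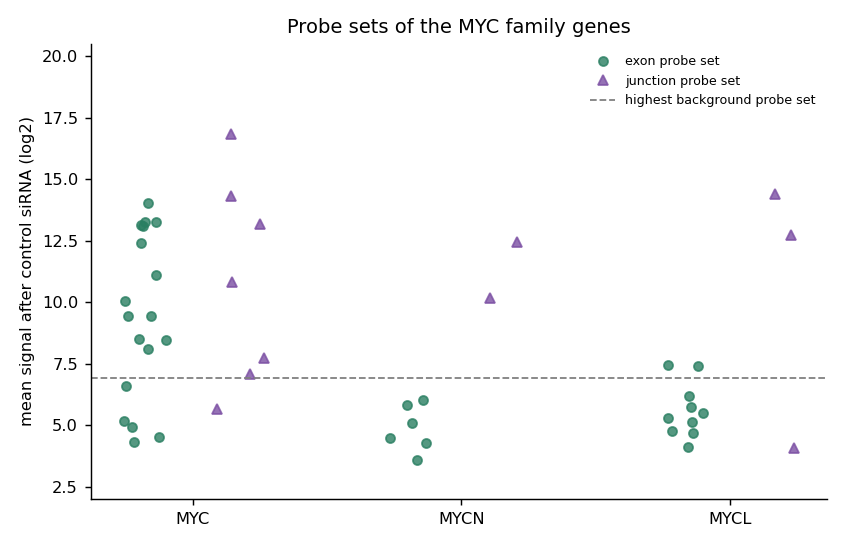
Mean log2 signal over the 3 control siRNA samples of each exon probe set (circles) and junction probe set (triangles) of MYC, MYCN and MYCL, with the highest background probe set as a dashed line. The 6 MYCN exon probe sets lie below that level and its 2 junction probe sets lie above it.

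The genes that lie around MYCN on chromosome 2 gave further readings of that region. The antisense gene MYCNOS, which overlaps MYCN, read 4.55, 4.34 and 4.49 after MATR3 siRNA, against 4.53, 4.22 and 4.25 after control siRNA, near the background as MYCN was. DDX1, an RNA helicase gene often amplified together with MYCN, averaged 13.27 after MATR3 siRNA and 13.31 after control siRNA, and NBAS, another gene of that region, averaged 9.62 after MATR3 siRNA and 9.59 after control siRNA. In the limma fit with the array set as a block (replicate 1 against replicates 2 and 3), 530 of 15209 clusters were called at a Benjamini-Hochberg adjusted p of 0.05, which is 3.48%. Of all clusters 2.08% rose and 1.41% fell, and of the 6 tested genes of this list 1 rose and 1 fell. VSNL1, a neuronal calcium sensor, read 8.09, 7.70 and 7.64 after MATR3 siRNA, against 7.56, 7.27 and 7.27 after control siRNA. Its groups did not overlap (0.44 ± 0.08, limma adjusted p = 0.0246). CYRIA, an inhibitor of RAC1 signalling, read 6.37, 6.00 and 6.03 after MATR3 siRNA, against 6.82, 6.34 and 6.45 after control siRNA. It was lower in each pair with overlapping groups (-0.40 ± 0.06, limma adjusted p = 0.0292), and lay below the highest background probe set. At an unadjusted p under 0.05 stood 3627 of all clusters, which is 23.8%. The same 15209 clusters fitted without the block gave 0 calls, with 96 at an unadjusted p under 0.05, a fit added after the data were seen. A limma fit without the block on all 33782 filtered clusters, with or without a symbol, also called 0 (0%), with 316 at an unadjusted p under 0.05.

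MAX, the shared partner of activators and antagonists, read 7.23, 6.63 and 6.60 after MATR3 siRNA, against 7.09, 6.39 and 6.44 after control siRNA. Both replicate 1 samples were high and the groups overlapped, and MAX was higher after MATR3 siRNA in each of 3 pairs. The difference was 0.18 ± 0.05 (SD, n = 3 pairs), beside a median of 0.04 over all tested clusters, and the MAX mean of 6.73 lay below the highest background probe set. Of 26 MAX probe sets above the exon-level filter, a mean of 6.00, the median difference was 0.17, with a range of -1.22 to 0.69. RefSeq places FNTB, CHURC1-FNTB, MIR4706 and MAX-AS1 over MAX, and which of these each probe set measured was not analysed here.

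The antagonists differed little between the groups. MXD4, in the cluster shared with MIR4800, read 8.11, 7.36 and 7.32 after MATR3 siRNA, against 7.92, 7.25 and 7.20 after control siRNA. It was higher in each of 3 pairs while the groups overlapped, with a difference of 0.14 ± 0.04 (SD, n = 3 pairs). MNT, the ubiquitous MAX-binding repressor, read 8.23, 7.28 and 7.28 after MATR3 siRNA, against 8.28, 7.29 and 7.40 after control siRNA. MNT was the only member lower in all 3 pairs, by a mean of -0.06 ± 0.06, and its groups overlapped.

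MXI1, at the 89.1st percentile of all clusters, read 10.00, 9.10 and 9.13 after MATR3 siRNA, against 10.03, 9.0 and 8.96 after control siRNA. Its pairs differed in direction, for a mean of 0.08 ± 0.10. MXD1, which is known from differentiating cells, read 7.76, 6.93 and 7.03 after MATR3 siRNA, against 7.66, 7.05 and 6.96 after control siRNA, a difference of 0.02 ± 0.12. MXD3, a member known from proliferating cells, read 6.04, 5.69 and 5.74 after MATR3 siRNA, against 6.04, 5.71 and 5.83 after control siRNA, a difference of -0.04 ± 0.05. The groups of all 3 genes overlapped, and MXD3, at a mean of 5.84, lay below the highest background probe set. Only 4 of the 10 members had 1 direction in all 3 pairs, MAX, MXD4 and MAZ higher and MNT lower. When 1 sample was left out, the difference of the group means took both signs for each of the 9 members other than MAZ, as for MAX (-0.02 to 0.40), MXD4 (-0.12 to 0.37) and MNT (-0.38 to 0.25). Leaving out a sample breaks 1 pair, and for replicate 1 it leaves that array set in a single group.

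MAZ read 9.36, 8.66 and 9.04 in MATR3 siRNA replicates 1 to 3, against 8.31, 7.91 and 7.77 in control siRNA replicates 1 to 3. Every MATR3 siRNA sample lay above every control sample, and among all 67528 clusters the gene lay at the 86.8th to 88.8th percentile after MATR3 siRNA and at the 81.3rd to 83.5th after control siRNA. The fold was 2.07, 1.68 and 2.41 in the 3 pairs, and the mean log2 difference was 1.02 ± 0.26 (SD, n = 3 pairs). Groups without overlap and MATR3 siRNA higher were found for 1.58% of the 15209 clusters (2.24% in either direction), and for 1 of the 10 members. Differences of 2-fold or more upward were found for 6 clusters (0.0395%) and downward for 13 (0.0855%), and MAZ ranked 4th from the highest difference of all. These values follow from the way the members were chosen and carry no further reading.

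**Figure D3:**
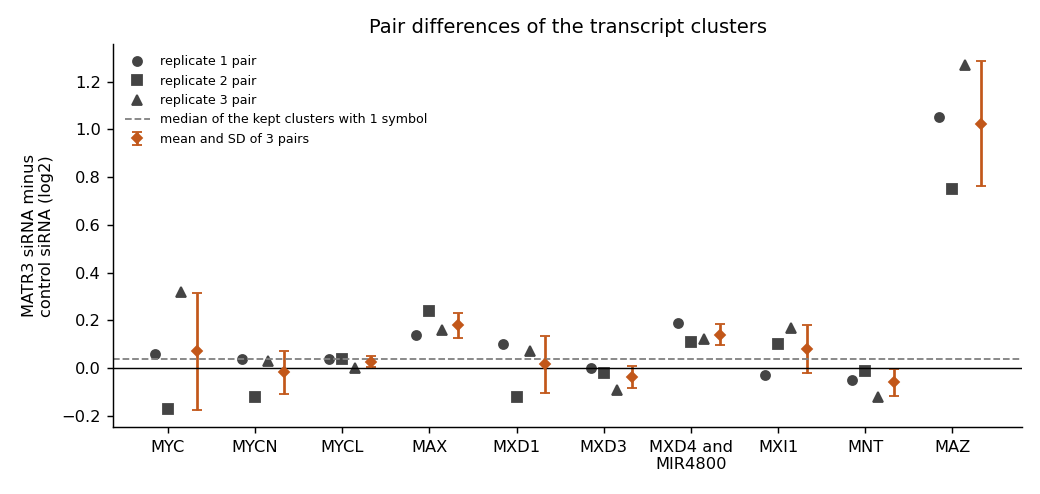
Log2 difference, MATR3 siRNA minus control siRNA, of each member's transcript cluster in the 3 pairs of the same replicate number, with the mean and SD. MAZ lies between 0.75 and 1.27, and the means of the other 9 members lie between -0.06 and 0.18.

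The MAZ gene was covered by 27 exon-level probe sets, 18 on exons and 9 on junctions, and 18 of them passed the filter on low signal. All 18 were higher after MATR3 siRNA, with differences of 0.17 to 2.71 and a median of 1.46. In 16 of the 18 (88.9%) the groups did not overlap, against 5.71% of the 370991 probe sets with 1 symbol above the filter, and 14 differed by 2-fold or more, against 1.57%. These probe sets read 1 gene on the same arrays and are not replicates. Their counts follow from the choice of MAZ and carry no further reading. Exon probe set PSR16004672.hg.1 read 14.26, 14.19 and 14.25 after MATR3 siRNA, against 12.71, 12.27 and 12.24 after control siRNA (1.83 ± 0.24). Exon probe set PSR16004674.hg.1 read 14.62, 14.10 and 14.24 after MATR3 siRNA, against 13.36, 12.79 and 12.80 after control siRNA (1.34 ± 0.09). Both were apart between the groups in every sample.

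The MAZ difference had a larger median in probe sets above the highest background than in those at or below it, and no test was made of this. The 17 probe sets with a mean above the highest background had a median difference of 1.52, which is 2.86-fold, and a range of 0.52 to 2.71. The 10 at or below it had a median of 0.14 and a range of -0.18 to 1.52. The cluster value of 1.02 is smaller than the exon-level median of 1.34 over all 27, and the authors' summary of the cluster was used as deposited. Relative to the gene's own mean signal, 1 junction and 1 exon stood at the extremes. Junction probe set JUC16002609.hg.1 read 13.12, 13.32 and 13.17 after MATR3 siRNA, against 10.85, 10.55 and 10.09 after control siRNA, and its splicing index difference was 1.32 ± 0.46 (SD, n = 3 pairs). The splicing index is the log2 value minus the mean of the gene's filtered probe sets in the same sample. Exon probe set PSR16004673.hg.1 read 7.09, 5.96 and 6.00 after MATR3 siRNA, against 6.89, 5.90 and 5.76 after control siRNA, with a splicing index difference of -1.22 ± 0.17. That exon probe set was dimmer than the highest background, and its groups overlapped.

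**Figure D4:**
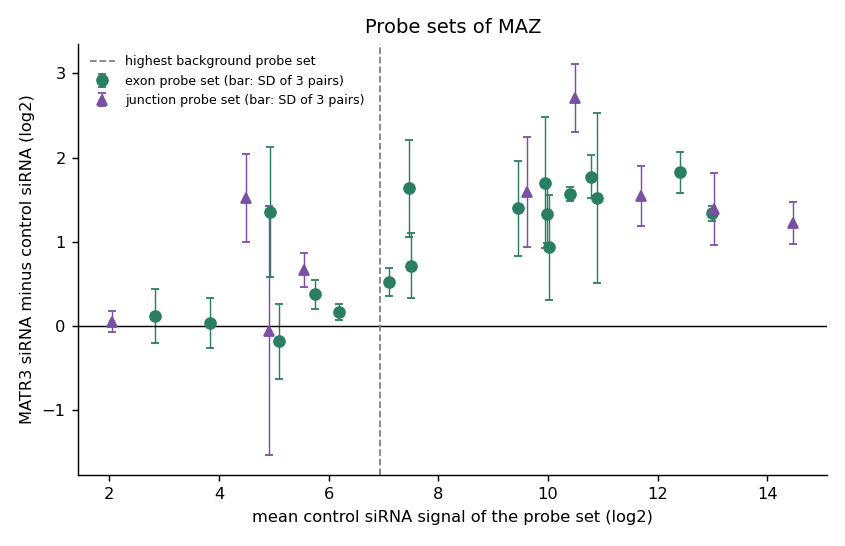
Log2 difference, MATR3 siRNA minus control siRNA, of each MAZ probe set against its mean log2 signal after control siRNA, with exons as circles, junctions as triangles and the SD of 3 pairs as bars. By their mean over the 6 samples, the 17 probe sets brighter than the highest background probe set differ by 0.52 to 2.71, and the 10 at or below it by -0.18 to 1.52.

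The genes next to MAZ on chromosome 16, KIF22 and PRRT2, were read as well, and the differences of these 2 were smaller than their spread between pairs. KIF22, a kinesin of the mitotic spindle, averaged 10.29 after MATR3 siRNA and 10.27 after control siRNA (0.02 ± 0.12). PRRT2, a presynaptic protein, averaged 7.44 after MATR3 siRNA and 7.41 after control siRNA (0.03 ± 0.08). Of the 20 tested genes on the list around MAZ, limma with the array set block called none in either direction, against 3.48% of all clusters. At an unadjusted p under 0.05 stood 4 of the 20, against 23.8% of all clusters. Their median difference was 0.02, against 0.04 for all tested clusters, and 11 lay above 0 and 9 below. The highest, 0.26 ± 0.14, exceeded its spread between pairs, and the lowest, -0.17 ± 0.21, did not. The brightest were PPP4C, a phosphatase subunit, at -0.04 ± 0.41 and SEZ6L2, a neuronal membrane protein, at 0.24 ± 0.18. RefSeq places MVP-DT, a non-coding gene, over part of MAZ, and which of the 2 each probe set measured was not analysed here.

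The other members together had 173 filtered probe sets with a median difference of 0.02. Of these, 8 (4.62%) were higher and 3 (1.73%) were lower in groups that did not overlap. Non-overlap in either direction was found for 8.66% of all filtered probe sets. Differences of 2-fold or more were found upward for 4 of the 173 and downward for 2, against 1.57% and 2.77% of all. Junction JUC08005155.hg.1 of MYC read at most 16.46 after MATR3 siRNA, against 16.62, 16.80 and 17.04 after control siRNA (-0.66 ± 0.45). Its lowest control sample lay above its highest MATR3 siRNA sample. Exon PSR14013997.hg.1 of MAX read 13.19, 13.59 and 13.64 after MATR3 siRNA, against 12.82, 12.90 and 13.06 after control siRNA (0.55 ± 0.16), with MATR3 siRNA higher throughout.

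For several junctions, pairs 2 and 3 differed by 2-fold or more in 1 direction and pair 1 did not. There were 6 such probe sets of 173 in the members other than MAZ (3.47%), against 4.94% of all filtered probe sets. In none of the 6 did pair 1 have the same sign. Of all filtered probe sets that were 2-fold in pairs 2 and 3, pair 1 had the same sign in 52.0%. Junction JUC08005160.hg.1 of MYC read 11.97, 7.85 and 8.09 after MATR3 siRNA, against 11.36, 10.39 and 10.66 after control siRNA (-1.5 ± 1.83). Junction JUC17007583.hg.1 of MNT read 9.35, 11.13 and 11.29 after MATR3 siRNA, against 9.88, 8.88 and 9.19 after control siRNA (1.27 ± 1.56). Junction JUC10005331.hg.1 of MXI1 read 14.15, 12.45 and 12.46 after MATR3 siRNA, against 13.83, 13.93 and 13.93 after control siRNA (-0.88 ± 1.04). In each of these pair 1 differed in the opposite direction from pairs 2 and 3. For MAZ, 8 of the 18 filtered probe sets were 2-fold or more in pairs 2 and 3, and 7 of those were also 2-fold in pair 1. Over all filtered probe sets, 5.31% were 2-fold in pairs 2 and 3, and 6.95% of those were also 2-fold in pair 1. The MAZ counts follow from the choice of that gene and carry no further reading. In limma fits of the splicing index with and without the array set block, 0 of the 360570 probe sets were called (0%). With the block, 33467 of them were at an unadjusted p under 0.05, and without it 18315.

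**Figure D5:**
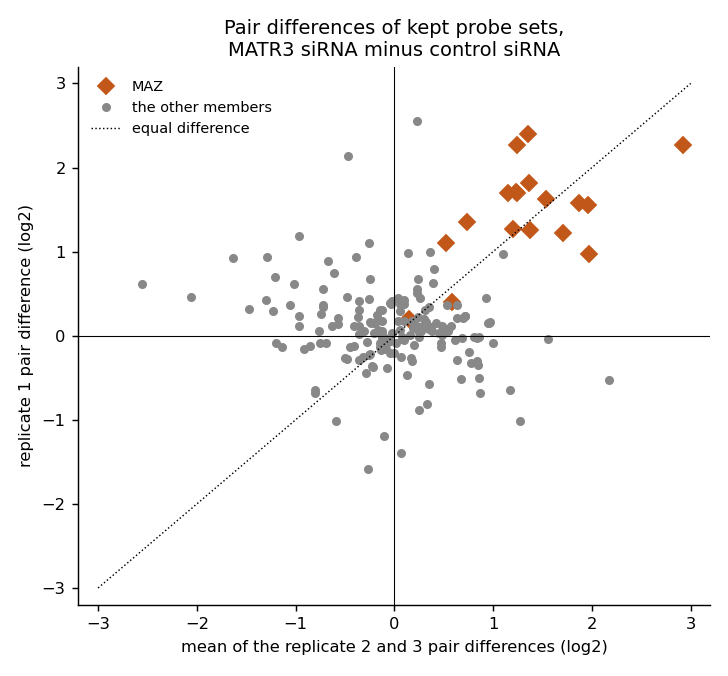
Log2 difference, MATR3 siRNA minus control siRNA, of the members' filtered probe sets, in pair 1 (vertical axis) against the mean of pairs 2 and 3 (horizontal axis), with MAZ and the other members marked apart. All 18 MAZ probe sets are higher after MATR3 siRNA, and the other members' probe sets scatter around 0 on both axes.

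The wider network was read from lists of genes named for their known roles, in the limma fit with the array set block. Of all clusters in that fit 2.08% rose, 1.41% fell and 23.8% were at an unadjusted p under 0.05, and a list with 1 or 2 calls rests on those genes alone. In the parallel MLX arm, MLX pairs with MondoA proteins in place of MAX. Of 5 tested genes on the list for that arm and MGA, 1 rose. TXNIP, a glucose-responsive arrestin-family gene and a known target of that arm, read 12.43, 11.99 and 11.98 after MATR3 siRNA, against 11.90, 11.42 and 11.61 after control siRNA. Its groups did not overlap (0.49 ± 0.11, limma adjusted p = 0.0276). ARRDC4, another target of that arm, differed by 0.27 ± 0.08 and was not called. Among 21 tested genes for MYC stability and cofactors, none was called, with a median of 0.02 and 5 at an unadjusted p under 0.05, near the share over all clusters. The brightest were SKP2, a ubiquitin ligase subunit, at 0.14 ± 0.03 and HUWE1, a ubiquitin ligase, at 0.15 ± 0.16.

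Genes known as MYC targets were mostly not called, in a fit where 2.08% of all clusters rose and 1.41% fell. Of 23 nucleolar and ribosome synthesis genes, none rose and 1 fell, 9 lay above 0 and 14 below, and the median was -0.02. NOLC1, a nucleolar phosphoprotein gene, read 12.03, 11.04 and 11.12 after MATR3 siRNA, against 12.34, 11.68 and 11.55 after control siRNA. It was lower in each pair with overlapping groups (-0.46 ± 0.17, limma adjusted p = 0.0385). Of 25 genes of metabolism and cell cycle entry, limma called none, with a median of 0.04 and 7 at an unadjusted p under 0.05, against 23.8% of all clusters. ODC1, the enzyme that starts polyamine synthesis, differed by 0.11 ± 0.05, and APEX1, a DNA repair endonuclease, by 0.10 ± 0.16.

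Of 12 tested genes known as repressed by MYC, 2 rose, against 2.08% of all clusters, and the median was -0.00. CDKN1A, the cell cycle inhibitor p21, read 9.21, 8.78 and 8.83 after MATR3 siRNA, against 8.68, 8.26 and 8.14 after control siRNA. Its groups did not overlap (0.58 ± 0.10, limma adjusted p = 0.0199). CDH2, encoding N-cadherin, read 13.61, 12.92 and 13.21 after MATR3 siRNA, against 13.00, 12.53 and 12.61 after control siRNA. It was higher in each pair with overlapping groups (0.53 ± 0.12, limma adjusted p = 0.0408).

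Among zinc fingers that bind GC-rich boxes, CTCF and cohesin, the company in which MAZ is known to act, 1 of 18 tested genes rose, against 2.08% of all clusters. SP2 read 9.49, 9.02 and 9.0 after MATR3 siRNA, against 9.15, 8.72 and 8.61 after control siRNA. It was higher in each pair with overlapping groups (0.34 ± 0.05, limma adjusted p = 0.0372). The list's median was 0.10, against 0.04 over all tested clusters. At an unadjusted p under 0.05 stood 10 of its 18 genes, against 23.8% of all clusters and 30.4% with the filter at the 75th percentile. That count was 5 of 12 for genes known as repressed by MYC, 5 of 23 for nucleolar genes and 1 of 5 for the MLX arm and MGA. The cause was not tested. CTCF, the boundary factor, averaged 12.98 after MATR3 siRNA and 12.78 after control siRNA (0.20 ± 0.08) and was not called. No call named in these lists remained in a limma fit with the replicate number as a block, which called 8 clusters in all, or in the fit with the array set block once any 1 of the 6 samples was left out. The fits with 1 sample left out called only 0 to 21 clusters in all, so the loss of a call there is not particular to these genes.

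Likeness over the 6 samples was described by Pearson's r across clusters with 1 symbol above the filter. The samples share the split of replicate 1 from the others, which such a correlation contains. For MAZ it also contains the difference between the siRNAs, so the differences of the clusters most like MAZ follow from that choice. The clusters most like MAZ were MAPKAPK2 (r = 0.997), LGR5 (r = 0.997) and CADPS (r = 0.996), with differences of 0.36 ± 0.08, 0.71 ± 0.20 and 0.80 ± 0.12. Those most like MYC were SEC23IP (r = 0.999), RBIS (r = 0.998) and BTBD8 (r = 0.998), and their differences were between 0.02 and 0.03. Those most like MYCN were RXRB (r = 0.994), TMEM170A (r = 0.994) and SIK1 (r = 0.993), at a level where MYCN itself was near the background.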

How the data were processed

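The deposited values are log2 signals that the authors made with Affymetrix Expression Console and RMA, per the submitters' processing notes. Versions, annotation release and genome build are not given in the sources used here. Gene-level and exon-level tables held identical values for all 2995 shared features, so they were read as the same arrays. Nothing was rescaled. Gene names came from the platform annotation, updated through RefSeq: of 67528 clusters, 23781 had 1 symbol, 1543 several and 42204 none. Of 913055 probe sets these numbers were 672085, 39483 and 201487.

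Limma 3.58.1 in R 4.3.3 compared 3 MATR3 siRNA samples with 3 control siRNA samples (lmFit and eBayes, two-sided, Benjamini-Hochberg threshold 0.05) after a filter that kept the brighter features, those with a mean no lower than the median feature. The splicing index used genes with at least 5 such probe sets. The array set block and the members and lists were chosen with earlier results of these data known, and members carry no test. Named genes were the 10 members. Each other list gave up to 3 called genes with the largest difference, or its 2 brightest where none was called. The 3 genes most like MAZ, MYC and MYCN were also named, as were splicing index extremes. Other probe sets, CTCF, ARRDC4, DDX1, NBAS, MYCNOS and the nearest neighbours were chosen after their values were seen.

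Replicate numbers are shared between the groups in the labels. Deviations from group means correlated at 0.696, 0.327 and 0.527 for the same numbers, all above 0.1, so the numbers were taken as pairs. Replicate 1 stood apart in both groups, which by itself makes deviations of the other replicates correlate. The check therefore cannot decide how those other replicates pair. MATR3 siRNA replicate 2 correlated more closely with a control sample of another number, so its pairing is uncertain. The number of arrays limits the precision. Software for reading, tabulating and drawing was the data.table package (version 1.17.8), Python 3.11.15, pandas 2.3.3 and matplotlib 3.10.9.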

Additional observations from a re-analysis of the deposited data

How the results depend on the processing

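With the array set block, limma called 530 clusters (316 higher, 214 lower), 386 after quantile normalization (170 higher, 216 lower), 205 after median centring (58 higher, 147 lower), 124 with no filter, 973 with the filter at the 75th percentile, 3275 with array weights and 8 with the replicate number as a block. The same clusters without the array set block gave 0, an alternative chosen after seeing the data. Leaving out 1 sample gave 0 to 21 calls, the 21 without MATR3 siRNA replicate 2. Over all filtered clusters without the array set block, where 0 were called, quantile normalization gave 1, array weights gave 3194 and the replicate block gave 0. The splicing index gave 1 call with the replicate block, and 0 to 411 when 1 sample was left out without the array set block, the 411 without MATR3 siRNA replicate 1.

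The MAZ difference was 0.98 after quantile normalization, 0.95 after median centring and 1.34 as the median of its exon-level probe sets. It ranged from 0.85 to 1.20 when 1 sample was left out. For each other member that range held both signs, from -0.09 to 0.03 for MYCN up to -0.38 to 0.25 for MNT and -0.22 to 0.43 for MXI1. The ranges are of differences of group means, so leaving out a replicate 1 sample also brings in the shift of that array set. MYCN was 0.14 as the median of its exon-level probe sets. MYC was 0.02 after quantile normalization and -0.01 after median centring, MYCL -0.03 and -0.05, and MXD1 -0.02 and -0.06, so their directions depend on the scaling. Of the list genes, no call named in the report was kept with the replicate block or without any 1 of the 6 samples. CDH2 and SP2 were lost after quantile normalization, leaving 1 and 0 calls in their lists. TXNIP, NOLC1, CDH2, SP2 and VSNL1 were lost after median centring, leaving 0, 0, 1, 0 and 1. The cause was not tested.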
